A study of Mus musculus with 16 samples.

Results

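The genes described here encode 10 muscle proteins of the Z-disc, the LIM domain family and the actin-binding proteins that are known to respond to stretch: Ankrd1, Fhl1, Fhl2, Csrp3, Myot, Abra, Enah, Ldb3, Xirp1 and Xirp2. The genes were chosen with earlier results of these data known, so their shares set beside those of all genes are descriptions. Every probe set whose array annotation named exactly 1 of these genes was taken, without regard to its values. That gave 18 probe sets for 9 of the 10 genes, among 45101 probe sets on the array and 18193 genes with a probe set of their own. Xirp2 had no probe set naming it alone and was not analysed here. RNA from the left ventricle of mice was hybridised to 16 Affymetrix mouse expression arrays, 4 in each of 4 groups. The groups were PPARalpha-/- mice with transverse aortic constriction (KO TAC), PPARalpha-/- mice with a sham operation (KO sham), wild-type mice with the constriction (WT TAC) and wild-type mice with a sham operation (WT sham). The constriction, which narrows the aorta and raises the load on the ventricle, lasted 28 days. The labels give no strain, sex or age. Nor do they state whether each replicate came from an animal of its own, so the p-values cover the spread between these arrays only. They name no tissue-specific driver for the loss of PPARalpha.

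The Z-disc borders each sarcomere, anchors the thin filaments and titin, and is one of the places where a heart muscle cell senses stretch. LIM domains are zinc-binding folds through which proteins dock on each other, and several LIM proteins shuttle between the Z-disc, the stretch-sensing part of titin and the nucleus. Some of the genes are known targets of serum response factor (SRF), whose coactivators of the MRTF family are released when actin polymerises, and Ankrd1 is known in heart muscle as a gene induced by pressure load.

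Signals below are the deposited linear intensities, which had been scaled to 1 mean per array, taken without the lowest and highest 2% of values. Differences are log2 of the first group over the second with the standard error (SE) of the limma fit to all 16 arrays. The call threshold was an adjusted p of 0.05 (Benjamini-Hochberg, over all 10916 genes tested). All 9 member genes with a probe set passed the filter on dim genes, as did 17 of the 18 probe sets, so no member gene was lost to it. The median signal of an array lay between 108.3 and 163. Ppara, the deleted gene, averaged 8.84 ± 0.21 in KO TAC and 9.26 ± 0.21 in KO sham on the log2 scale, against 10.76 ± 0.29 in WT TAC and 10.96 ± 0.26 in WT sham (SD, n = 4 each), with no overlap between genotypes. Where its probe set lies relative to the deletion is not given in the sources used here. The mean log2 signal of 9 hybridisation spike-in probe sets ran between 12.00 and 12.68 in KO TAC, 12.40 and 12.90 in KO sham, 12.62 and 13.04 in WT TAC, and 12.34 and 12.63 in WT sham. KO TAC replicates 2 and 3 and WT TAC replicate 3 held the extremes of this measure.

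Defining heart muscle markers were bright in every group. The 8 heart muscle markers summed to 388563 to 487319 in KO TAC, 458289 to 538451 in KO sham, 506850 to 672246 in WT TAC and 419664 to 488593 in WT sham, and none of the 8 was called in any comparison. Because this is bulk tissue, fewer cells of a type and less RNA per cell cannot be told apart. The 7 fibroblast markers summed to 48144 to 56495 in KO TAC, 39659 to 45410 in KO sham, 39798 to 53426 in WT TAC and 40675 to 42212 in WT sham, and 2 of 7 were higher in KO TAC than in KO sham and than in WT TAC. Over all genes, 1.58% were called higher in KO TAC against KO sham and 1.32% against WT TAC. The 4 atrial markers varied widely, between 1025 and 5339 in KO TAC, 1357 and 26514 in KO sham, 390 and 2132 in WT TAC, and 441 and 8285 in WT sham, with none called. The 5 macrophage markers summed to 13933 to 17448 in KO TAC, 13474 to 14692 in KO sham, 10711 to 12706 in WT TAC and 10022 to 12392 in WT sham, and 1 of 5 was higher in KO TAC than in WT TAC. None of the 5 endothelial and the 3 tested smooth muscle markers was called in any comparison. The 7 skeletal muscle markers, which matter here because myotilin and FHL1 are also skeletal muscle proteins, summed to 253.5 to 955.4 in KO TAC, 528.4 to 990.5 in KO sham, 593.8 to 913.2 in WT TAC and 562.1 to 649 in WT sham, and none exceeded a signal of 462.7 on any array. Of these 7 only Mylpf passed the filter on dim genes, and it was not called in any comparison. No marker of these lists was listed at 0.

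RefSeq promoter windows (assembly GRCm38.p6, 250 bases before to 50 after the start) were at hand for 7 of the 10 genes, 11 windows in all. Myot, Abra and Xirp1 had no window. Windows were searched on both strands for the CArG box, the SRF motif, for the M-CAT motif of TEAD factors (letters CATTCC), and for the MEF2 motif, the first and the last by name. A CArG box was found in 5 of the 11 windows, of 3 genes (Fhl1, Fhl2 and Ldb3), while 1.63% of 32851 mouse windows of that length hold one. In Ldb3 the matches of its 2 overlapping windows are the same site. M-CAT was found only in the Ankrd1 window, in 2 copies, and 14.7% of all windows hold it. MEF2 was found in the second Fhl2 window and in the Xirp2 window, against 3.19% of all windows. The Csrp3 and Enah windows held none of the 3. The sequences below show the windows of Ankrd1, with its 2 M-CAT copies, of Fhl1, Fhl2 and Ldb3, with 1 CArG box each, and of Enah, with none, so that genes called higher with load in KO hearts (Fhl1 and Enah) stand beside genes that were not. Capitals mark the motif, and a match describes letters, not a site in use.
Ankrd1 (chr19:36119795-36120094, minus strand): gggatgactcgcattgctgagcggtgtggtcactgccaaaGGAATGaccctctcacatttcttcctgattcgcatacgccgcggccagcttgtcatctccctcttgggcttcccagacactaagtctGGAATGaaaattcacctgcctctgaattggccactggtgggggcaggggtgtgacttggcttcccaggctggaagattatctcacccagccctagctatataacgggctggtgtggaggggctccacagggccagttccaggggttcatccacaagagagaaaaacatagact
Fhl1, first window (chrX:56779433-56779732, plus strand): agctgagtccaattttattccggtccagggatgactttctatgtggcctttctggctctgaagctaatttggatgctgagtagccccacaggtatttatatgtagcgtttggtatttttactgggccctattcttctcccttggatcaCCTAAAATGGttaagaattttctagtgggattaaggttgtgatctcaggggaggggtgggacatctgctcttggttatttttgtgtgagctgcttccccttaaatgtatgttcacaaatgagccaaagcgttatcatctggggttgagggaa
Fhl2, first window (chr1:43163912-43164211, minus strand): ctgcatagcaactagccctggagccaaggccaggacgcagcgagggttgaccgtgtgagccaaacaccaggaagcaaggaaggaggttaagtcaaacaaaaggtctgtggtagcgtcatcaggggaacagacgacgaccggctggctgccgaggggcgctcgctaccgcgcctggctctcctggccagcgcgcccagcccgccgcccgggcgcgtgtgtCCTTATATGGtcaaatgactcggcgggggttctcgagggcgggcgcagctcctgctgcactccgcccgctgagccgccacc
Ldb3, first window (chr14:34588558-34588857, minus strand): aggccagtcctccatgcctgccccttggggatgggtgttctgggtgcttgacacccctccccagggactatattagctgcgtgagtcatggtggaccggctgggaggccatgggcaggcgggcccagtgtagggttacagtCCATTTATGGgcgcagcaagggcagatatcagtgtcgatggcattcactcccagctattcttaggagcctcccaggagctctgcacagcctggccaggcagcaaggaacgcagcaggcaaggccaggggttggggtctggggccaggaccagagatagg
Enah (chr1:182019931-182020230, minus strand): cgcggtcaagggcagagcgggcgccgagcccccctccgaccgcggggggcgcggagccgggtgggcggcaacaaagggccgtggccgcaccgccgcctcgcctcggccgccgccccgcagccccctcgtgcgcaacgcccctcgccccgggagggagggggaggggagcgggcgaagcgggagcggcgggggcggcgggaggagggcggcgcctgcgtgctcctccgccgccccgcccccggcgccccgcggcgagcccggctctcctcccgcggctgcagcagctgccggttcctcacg
The copies in the Ankrd1 window, read as GGAATG because they lie on the other strand, begin 210 and 123 bases before the start. The CArG boxes begin 102 bases before the start in Fhl1, 31 in Fhl2 and 109 in Ldb3.

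The constriction was first followed in mice without PPARalpha. Abra, Fhl1, Enah, Xirp1 and Myot were higher in KO TAC than in KO sham, between 1.56-fold and 3.23-fold, and their groups did not overlap. Ankrd1 had a positive difference that did not pass the test. Fhl2, Csrp3 and Ldb3 differed by at most 0.066 on the log2 scale in size, and none was called, although with quantile normalization Fhl2 was at 0.26 and Csrp3 at 0.17, and with centring on medians Fhl2 was at 0.19. So 5 of 9 member genes were called higher, where 1.58% of all genes were, and none was called lower, where 0.98% of all genes were. The 5 members whose 4 KO TAC arrays all lay above the 4 KO sham arrays compare with 5.42% of all genes. The median difference of the 9 members was 0.64, against 0.00026 over all genes tested. As the members were chosen with earlier results known, these shares and medians describe them only. Fibroblast marker sums were also higher in KO TAC than in KO sham, without overlap (at least 48144 against at most 45410). Of the 8 heart muscle markers only 1 had a positive difference, with a median of -0.21, none called, and their sums overlapped. The part of these markers in the results was not tested.

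**Figure D1:**
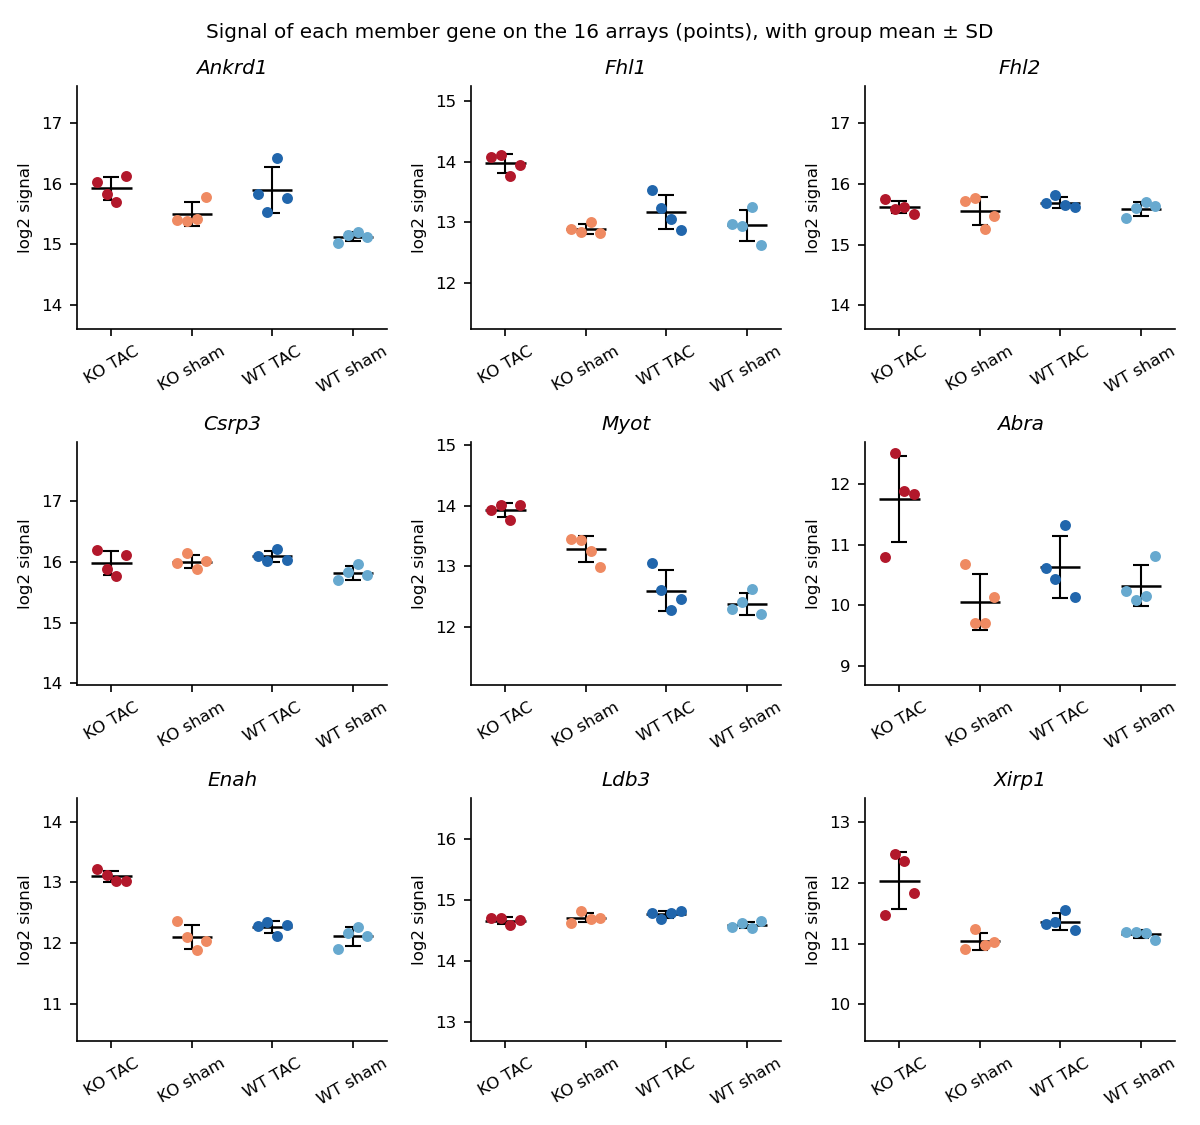
Signal of the 9 member genes on each array (log2 scale, 1 point per array, bar at the mean with SD, n = 4 per group), with KO TAC and KO sham left of WT TAC and WT sham. All panels span the same log2 range, so that the wide spread of Abra in KO TAC, between 1783.7 and 5818.2, can be set beside the narrow spread of Ldb3.

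Among the actin regulators, Abra (STARS), which binds actin and promotes MRTF and SRF signalling, had signals of 1783.7, 5818.2, 3764.3 and 3639.9 in KO TAC, against 1649.4, 833.7, 841.3 and 1123.3 in KO sham. The lowest KO TAC array, replicate 1, lay just above the highest KO sham array, also replicate 1, and the other 3 were far above it. The difference was 1.69 ± 0.34 (SE, 3.23-fold, adjusted p = 0.0167). This call was lost when any of KO sham replicates 2 or 3 or KO TAC replicates 2 or 3 was left out, with adjusted p between 0.0513 and 0.0589. Enah (Mena), which extends actin filaments at their growing ends and sits at the intercalated disc in heart muscle, had 9511.8, 8934.9, 8360.6 and 8334.2 in KO TAC, against 5271.5, 4398.9, 3772.3 and 4212.4 in KO sham. Every KO TAC array was far above the highest KO sham array. The difference was 1.00 ± 0.11 (SE, 2.0-fold, adjusted p = 0.00033), the smallest p of the 9 members. Xirp1 (Xin), an actin-binding repeat protein of the intercalated disc, had 2843.1, 5727.9, 5279.0 and 3647.9 in KO TAC, against 1933.7, 2420.4, 2018.1 and 2096.5 in KO sham. The groups did not overlap, and the KO TAC arrays spread more widely (SD 0.47 on the log2 scale) than the KO sham arrays (SD 0.14). The difference was 1.00 ± 0.18 (SE, 1.99-fold, adjusted p = 0.00831).

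The spread of Abra and Xirp1 among KO TAC arrays lined up with the spike-in signal of those arrays. Replicates 2 and 3, which had spike-in means of 12.13 and 12.00, were the 2 highest for both genes, and replicate 1, with the highest mean of 12.68, was the lowest for both. In WT TAC the order ran the other way. Replicate 3 of that group had its highest spike-in mean, 13.04, and its highest Abra and Xirp1 signals, 2575.5 and 3009.7. A fit with the spike-in mean as a covariate has 1 slope for all groups, so it could not follow both orders. Spike-in means also overlapped little between KO TAC (12.00 to 12.68) and WT TAC (12.62 to 13.04). With this covariate the Abra difference was 1.57 (adjusted p = 0.0896) and the Xirp1 difference 0.81 (adjusted p = 0.0639). With KO TAC replicates 2 and 3 and WT TAC replicate 3 left out they were 1.25 (adjusted p = 0.155) and 0.61 (adjusted p = 0.0704). Both calls were thus lost with either setting, while Enah kept its call at 1.05 (adjusted p = 0.00262) and 1.02 (adjusted p = 0.0122), and Fhl1 at 1.15 (adjusted p = 0.00657) and 1.12 (adjusted p = 0.0254). Myot, described below, had 0.65 (adjusted p = 0.141) and 0.68 (adjusted p = 0.172), and lost its call with both. Over all genes the calls in KO TAC against KO sham fell too, from 173 higher and 107 lower in the main fit. They were 71 and 54 with the covariate, and 34 and 21 without the 3 arrays, a fit that kept only KO TAC replicates 1 and 4.

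**Figure D2:**
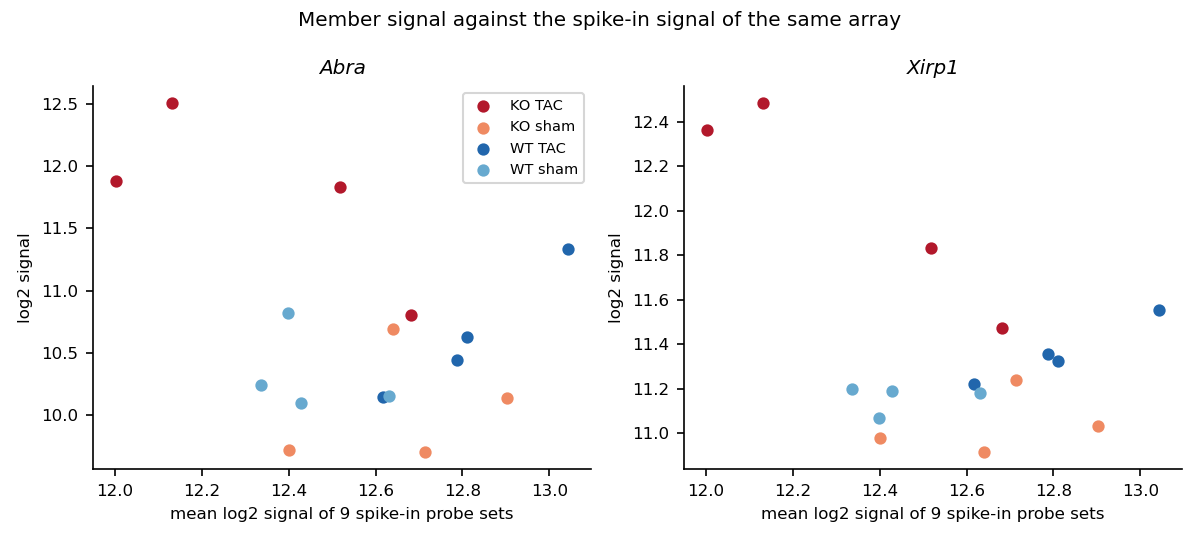
Abra and Xirp1 log2 signal (vertical axis) against the mean log2 signal of 9 spike-in probe sets (horizontal axis) on each of the 16 arrays. The 2 KO TAC arrays with spike-in means of 12.00 and 12.13 lie at the upper left in both panels, and the KO TAC array at 12.68 lies near the KO sham arrays. The WT TAC array at 13.04 is the highest of its group for both genes.

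Of the LIM domain genes, only Fhl1 was called. FHL1 is a four-and-a-half LIM protein that binds titin, and it had 17211.4, 17552.9, 13936.1 and 15755.4 in KO TAC, against 7593.5, 7349.7, 8203.0 and 7210.7 in KO sham. The lowest KO TAC array was well above the highest KO sham array, and each group was tight. The difference was 1.08 ± 0.15 (SE, 2.12-fold, adjusted p = 0.00165). Its relative Fhl2, a four-and-a-half LIM protein best known as a coregulator of transcription in heart muscle, had 55200.5, 49355.8, 50640.4 and 46607.3 in KO TAC, against 54220.7, 55596.9, 39092.2 and 45431.0 in KO sham. These groups overlapped throughout, and the difference was 0.066 with a 95% confidence interval of -0.18 to 0.31 (adjusted p = 0.852). Csrp3, the muscle LIM protein of the Z-disc, had 75193.9, 60678.3, 55652.7 and 70666.5 in KO TAC, against 64778.0, 72557.3, 60172.3 and 66394.2 in KO sham, and its difference was -0.016 (interval -0.25 to 0.22, adjusted p = 0.973). Ldb3 (cypher or ZASP), a PDZ and LIM protein that ties alpha-actinin into the Z-disc, had 26706.4, 26573.9, 24542.6 and 26003.0 in KO TAC, against 25358.8, 28851.5, 26423.9 and 26736.4 in KO sham. Its groups overlapped too, with a difference of -0.048 (interval -0.21 to 0.12, adjusted p = 0.839). The sign of the Csrp3 and Ldb3 differences turned positive with quantile normalization and with centring on medians.

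These members are among the brightest features of the array. Only 0.0776% of all probe sets were brighter on average than that of Csrp3, 0.184% than that of Fhl2 and 0.188% than the brighter probe set of Ankrd1. The scanner's upper limit is not given in the sources used here, and its part in these 3 genes' results was not tested.

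Myot encodes myotilin, a Z-disc protein that binds alpha-actinin and filamin and bundles actin. It had 15511.2, 16535.0, 13838.3 and 16481.3 in KO TAC, against 11231.5, 11119.6, 9727.4 and 8153.7 in KO sham. The groups did not overlap, and the difference was 0.64 ± 0.16 (SE, 1.56-fold, adjusted p = 0.047). That p stands at the threshold: the difference was called in 6 of 15 other settings and in 2 of the 16 fits that each left out 1 array, with values of 0.54 to 0.70 among the latter set. Ankrd1 (CARP), an ankyrin repeat protein that binds titin in the sarcomere and also enters the nucleus, had 66484.7, 58451.6, 53428.9 and 71905.4 in KO TAC, against 43336.0, 42769.1, 43688.5 and 56620.5 in KO sham. KO sham replicate 4 lay inside the range of the KO TAC arrays, and the difference was 0.43 ± 0.17 (SE, adjusted p = 0.21). With quantile normalization it was 0.63 and called (adjusted p = 0.0156).

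In wild-type mice no member was called. None of the 10916 genes was called in WT TAC against WT sham (0%), so the members' 0 of 9 is the same as the background. In other settings at most 2 genes were called (without WT sham replicate 1), and no member was called in any of them. At an unadjusted p under 0.05, 3 of 9 members had a positive difference, where 7.62% of all genes passed in either direction. All 9 differences were positive, against 49.96% of all genes, except that Csrp3 and Fhl2 were negative with quantile normalization and Fhl2 with centring on medians. The 4 WT TAC arrays lay above the 4 WT sham arrays for Ankrd1, Csrp3, Ldb3 and Xirp1, 4 of 9 members against 2.64% of all genes. The sums of the heart muscle markers separated in the same way (at least 506850 in WT TAC, against at most 488593 in WT sham), with a positive difference in 7 of 8 and a median of 0.27, none called, and their part in these results was not tested.

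Ankrd1 had the largest difference of the 9 members in wild type. Its signals were 58594.2, 47351.1, 88066.3 and 55684.2 in WT TAC, against 33465.8, 36447.5, 37820.6 and 35820.1 in WT sham. The highest was WT TAC replicate 3, the array with the highest spike-in signal. The difference was 0.76 ± 0.17 (SE, 95% interval 0.41 to 1.11, 1.69-fold, adjusted p = 0.484), and 0.58 without that array (adjusted p = 0.441). Its second probe set gave 43224.7, 36935.4, 58136.4 and 39216.3 in WT TAC, against 28353.9, 32044.3, 29770.6 and 27916.5 in WT sham, again without overlap. Csrp3 had 70571.9, 66087.7, 76202.3 and 67227.5 in WT TAC, against 53329.2, 58443.7, 64039.5 and 56369.4 in WT sham, a difference of 0.27 ± 0.11 (SE, adjusted p = 0.621) that was -0.014 with quantile normalization. Ldb3 had 28142.0, 26371.4, 28440.8 and 28924.4 in WT TAC, against 24023.3, 25120.7, 23732.6 and 25792.5 in WT sham, a difference of 0.18 ± 0.08 (SE, adjusted p = 0.631). Fhl2 had 52749.4, 57605.5, 51384.5 and 50534.2 in WT TAC, against 44336.7, 49594.7, 53083.4 and 50804.1 in WT sham, which overlap, with 0.10 ± 0.12 (SE, adjusted p = 0.881).

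At the probe set that stood for each gene, the 5 genes called in the KO hearts had differences of 0.15 to 0.31 in wild type. Fhl1 had 11833.9, 9638.1, 8458.0 and 7493.0 in WT TAC, against 8055.4, 7825.0, 9772.1 and 6346.8 in WT sham, which overlap, with a difference of 0.22 ± 0.15 (SE, adjusted p = 0.763). Enah had 4972.7, 5214.0, 4448.5 and 5010.7 in WT TAC, against 3813.5, 4622.7, 4904.6 and 4429.2 in WT sham, also overlapping, with 0.15 ± 0.11 (SE, adjusted p = 0.792). Its second probe set, described below, gave 0.41 ± 0.15 without overlap (SE, adjusted p = 0.686 among probe sets). The third, dimmer one gave 0.87 ± 0.29, with overlap (adjusted p = 0.672). Of the other tested Enah probe sets, one gave 0.87 ± 0.58 and another -0.42 ± 0.47, both overlapping. Abra had 1579.4, 1391.5, 2575.5 and 1129.8 in WT TAC, against 1209.8, 1092.8, 1138.8 and 1805.9 in WT sham, and a difference of 0.31 ± 0.34 (SE, adjusted p = 0.878). Abra was highest in WT TAC replicate 3. Xirp1 had 2565.4, 2620.2, 3009.7 and 2387.9 in WT TAC, against 2354.1, 2334.0, 2324.3 and 2144.6 in WT sham, with 0.20 ± 0.18 (SE, adjusted p = 0.826). Myot had 8522.2, 6268.2, 4950.8 and 5620.8 in WT TAC, against 5019.0, 5426.9, 6340.4 and 4730.1 in WT sham, which overlap, with 0.22 ± 0.16 (SE, adjusted p = 0.784).

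**Figure D3:**
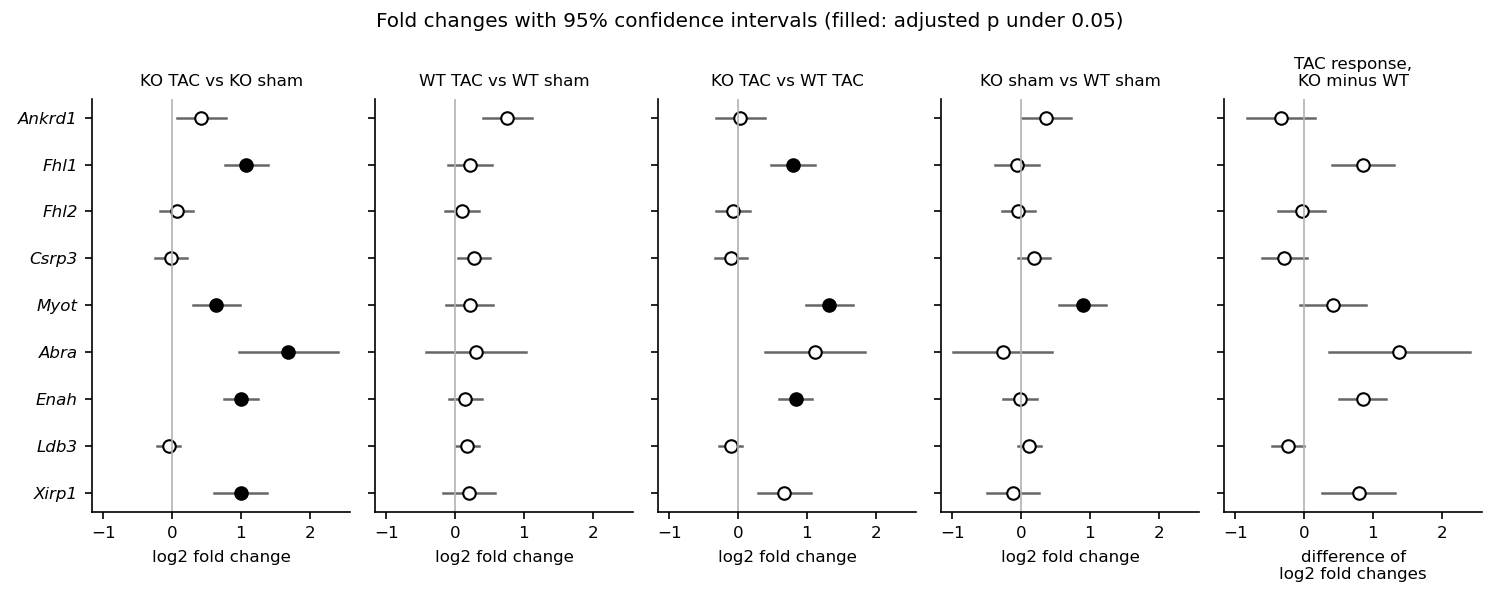
Log2 differences of the 9 member genes in each comparison, with 95% confidence intervals from the limma fit and filled points for called genes. In KO TAC against KO sham the filled points are Abra, Fhl1, Enah, Xirp1 and Myot, and in WT TAC against WT sham no point is filled.

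Whether the response to constriction differed between genotypes was tested as the response in KO minus the response in WT. No member passed, nor did any of the 10916 genes (0%). The differences of response were 1.38 ± 0.48 for Abra (SE, adjusted p = 0.382), 0.86 ± 0.21 for Fhl1 (adjusted p = 0.234), 0.85 ± 0.16 for Enah (adjusted p = 0.125) and 0.79 ± 0.25 for Xirp1 (adjusted p = 0.354). Their 95% intervals were 0.36 to 2.41, 0.41 to 1.31, 0.51 to 1.2 and 0.26 to 1.33 in that order. These 4 had an unadjusted p under 0.05, as did 10.3% of all genes. The adjusted p of Enah was the smallest among all genes, shared with others that include the load marker Rcan1 and the fibroblast marker Lum (0.80 ± 0.15, SE). With limma's trend and robust options Enah was called (adjusted p = 0.0138), among 13 genes in all, while with the mean of its probe sets its value was 0.36 (adjusted p = 0.801). The value of Xirp1 was 0.39 with the spike-in covariate (adjusted p = 0.96) and 0.47 without KO TAC replicates 2 and 3 and WT TAC replicate 3 (adjusted p = 0.666). Ankrd1 had -0.33 ± 0.23 (SE, adjusted p = 0.667), Csrp3 -0.29 ± 0.15 (adjusted p = 0.537), Ldb3 -0.23 ± 0.11 (adjusted p = 0.495) and Myot 0.42 ± 0.23 (adjusted p = 0.535). The 8 heart muscle markers all had negative values here, with a median of -0.48, none called, and their part in these results was not tested.

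Under constriction, KO hearts were then set against WT hearts. Myot, Enah and Fhl1 were called higher in KO TAC than in WT TAC, 3 of 9 members against 1.32% of all genes. For these 3 the 4 KO TAC arrays all lay above the 4 WT TAC arrays, as they did for 5.13% of all genes. Myot differed most, by 1.32 ± 0.16 (SE, 2.5-fold, adjusted p = 0.00032), and its lowest KO TAC array of 13838.3 stood far above its highest WT TAC array of 8522.2. Enah differed by 0.84 ± 0.11 (SE, 1.79-fold, adjusted p = 0.000949), with 8334.2 as the lowest KO TAC array and 5214.0 as the highest WT TAC array. Fhl1 differed by 0.80 ± 0.15 (SE, 1.74-fold, adjusted p = 0.0111), with 13936.1 and 11833.9 as those 2 arrays. With the same 3 arrays left out the Fhl1 difference was 0.80 and not called (adjusted p = 0.129), nor was it with the spike-in covariate (0.90, adjusted p = 0.0695), and it was called in 10 of 15 other settings in all. With the 3 arrays left out, Myot (1.26, adjusted p = 0.0149) and Enah (0.81, adjusted p = 0.045) were called. Abra differed by 1.12 ± 0.34 (SE, adjusted p = 0.108) and Xirp1 by 0.67 ± 0.18 (SE, adjusted p = 0.063), neither past the threshold. Without KO TAC replicate 1 both were called, with adjusted p of 0.0268 and 0.00831. For Ankrd1, KO TAC and WT TAC overlapped, with a difference of 0.033 ± 0.17 (SE, 95% interval -0.32 to 0.39, adjusted p = 0.948). That value depended on the scaling and the arrays: it was 0.22 with centring on medians, 0.36 with quantile normalization, 0.39 with the spike-in covariate and 0.37 with the 3 arrays left out, and called with none of these 4. Fhl2 (-0.074 ± 0.12), Csrp3 (-0.10 ± 0.11) and Ldb3 (-0.11 ± 0.08) overlapped between KO TAC and WT TAC as well, with adjusted p between 0.53 and 0.802, and their signs turned with quantile normalization and with centring on medians. The sums of the heart muscle markers separated here (at most 487319 in KO TAC, against at least 506850 in WT TAC). All 8 differences were negative, with a median of -0.33, none called, and their part in these results was not tested.

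In sham hearts 1 of the 9 members, Myot, differed between genotypes, where 0.229% of all genes were called higher. Myot had 11231.5, 11119.6, 9727.4 and 8153.7 in KO sham, against 5019.0, 5426.9, 6340.4 and 4730.1 in WT sham. The groups did not overlap, and the difference was 0.90 ± 0.16 (SE, 1.87-fold, adjusted p = 0.0125). The call was lost with centring on medians (adjusted p = 0.114) and without WT sham replicate 4 (adjusted p = 0.054). The order of the Myot group means was KO TAC, KO sham, WT TAC and WT sham, at 13.92 ± 0.12, 13.28 ± 0.22, 12.60 ± 0.33 and 12.38 ± 0.18 (log2 mean ± SD, n = 4), and WT TAC and WT sham overlapped. Ankrd1 also had every KO sham array above every WT sham array, as did 3.29% of all genes, but its difference of 0.37 ± 0.17 (SE) was not called (adjusted p = 0.554). Enah, Fhl1, Fhl2 and Xirp1 differed by between -0.12 and -0.014, and Abra by -0.27 ± 0.34 (SE, adjusted p = 0.895). For Abra, Enah, Fhl1 and Xirp1, KO sham and WT sham overlapped.

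The genes with several probe sets gave a further reading of the same arrays. Of the 17 member probe sets tested among 27022, 6 were called higher in KO TAC than in KO sham (0.488% of all probe sets). They were 1 for Fhl1, 1 for Abra, 1 for Xirp1 and 3 for Enah, whose differences were 1.00, 1.01 and 1.57. The second Enah probe set had 7176.3, 8337.8, 7057.2 and 7774.7 in KO TAC, against 4936.4, 3669.1, 3086.3 and 3614.8 in KO sham. The third Enah probe set, much dimmer, had 829.6, 1359.2, 961.6 and 927.5 in KO TAC, against 336.6, 240.5, 359.4 and 444.9 in KO sham. All 3 Enah probe sets separated the groups without overlap. The other 3 Enah probe sets, of which 1 was too dim to test, were not called, and neither was the dim second Fhl1 probe set (0.39 ± 0.70, SE), than which 52.1% of all probe sets were brighter. Averaging all probe sets of a gene ended the Enah call (0.70, adjusted p = 0.225) and the Fhl1 call (0.74, adjusted p = 0.397), and likewise against WT TAC (Enah 0.49, adjusted p = 0.409, and Fhl1 0.38, adjusted p = 0.688). The Myot probe set, tested among all probe sets, was not called (adjusted p = 0.103). Against WT TAC, 4 of 17 were called higher in KO TAC (0.414% of all probe sets), 1 each for Fhl1 and Myot and 2 for Enah. In sham hearts 1 of 17, that of Myot, was called (0.0518% of all probe sets).

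**Figure D4:**
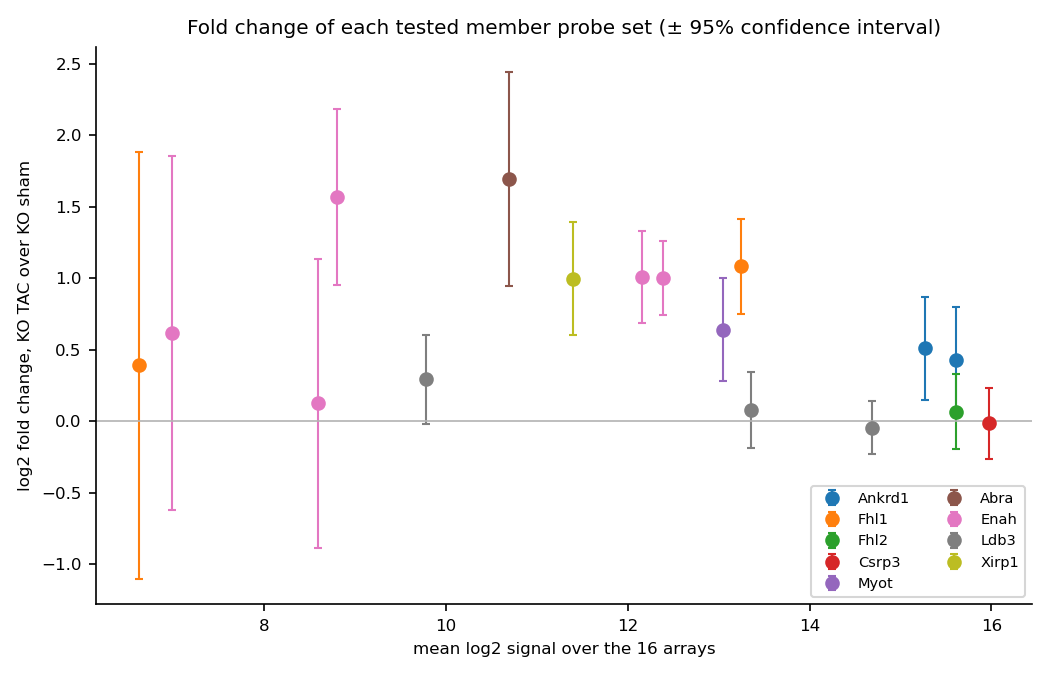
Log2 difference in KO TAC against KO sham of each of the 17 tested member probe sets (vertical axis, with 95% confidence interval from the limma fit over all probe sets) against its mean log2 signal over the 16 arrays (horizontal axis), coloured by gene. The intervals of the brighter Fhl1 probe set, of 3 Enah probe sets and of the Abra and Xirp1 probe sets lie clear of 0. So do those of Myot and of both Ankrd1 probe sets, which were not called. The dimmest probe sets have the widest intervals.

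Other genes of these systems were read from lists chosen with earlier results of these data known. In KO TAC against KO sham, 1.58% of all genes were called higher and 0.98% lower. Of the other Z-disc and sarcomere-anchoring genes, 3 of 19 tested were called higher and 0 lower in KO TAC than in KO sham, with a median difference of 0.13. They were Flnc, the muscle filamin (0.65 ± 0.13, adjusted p = 0.0184), Cavin4, a muscle caveolar protein (0.56 ± 0.13, adjusted p = 0.0347), and Des, which encodes the filament protein desmin (0.48 ± 0.11, adjusted p = 0.0391). Of the other LIM and PDZ-LIM genes, 5 of 21 were called higher and 1 lower, with a median of 0.26. Among them were Lpp, a focal adhesion LIM protein (0.63 ± 0.12, adjusted p = 0.0129), Pdlim1, which binds alpha-actinin (0.63 ± 0.14, adjusted p = 0.0323), and Lmcd1, a LIM protein of heart muscle (0.46 ± 0.11, adjusted p = 0.0366), and the lower one was Crip2 (-0.36 ± 0.08, adjusted p = 0.0349). Of the titin-associated ankyrin repeat genes and muscle ubiquitin ligases, 1 of 4 was called. It was Ankrd23, an ankyrin repeat relative of Ankrd1, at 0.84 ± 0.13 (adjusted p = 0.00287).

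Of the genes of the SRF, MRTF and YAP axis, 3 of 15 were called higher and 0 lower in KO TAC than in KO sham (1.58% and 0.98% of all genes), with a median of 0.16. These were Acta1, the skeletal actin gene (1.78 ± 0.30, adjusted p = 0.00564), Ccn2, which encodes a matrix-associated growth factor (1.77 ± 0.27, adjusted p = 0.00287), and Tpm4, a cytoskeletal tropomyosin (0.55 ± 0.12, adjusted p = 0.02). None of the 10 genes of the Ena/VASP family and its partners in actin growth was called, with Pfn1 (profilin) closest at 0.34 ± 0.10 (adjusted p = 0.092). Of 5 load markers, 3 were called higher, namely Acta1, counted in the SRF list as well, Rcan1, a regulator of calcineurin, and Nppa, which encodes atrial natriuretic peptide. All values after ± here are SE. In wild type no gene of these lists was called, and neither was any other of the 10916 genes. All 5 load markers had a positive difference there, with a median of 0.55, while their median in KO TAC against KO sham was 1.27. Nppa, at 1.03 ± 0.16, had the smallest adjusted p of all genes in that comparison (0.107). In KO TAC against WT TAC the called list genes were Flnc (0.64 ± 0.13, adjusted p = 0.0189) and Lpp (0.48 ± 0.12, adjusted p = 0.0477), both higher, and Ablim1, an actin-binding LIM protein (-0.47 ± 0.09, adjusted p = 0.0134), lower, besides the load markers Myh7, Rcan1 and Nppa, all higher. In KO sham against WT sham they were Cavin4 (-0.65 ± 0.13, adjusted p = 0.0287) and Ablim1 (-0.57 ± 0.09, adjusted p = 0.00546), both lower.

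**Figure D5:**
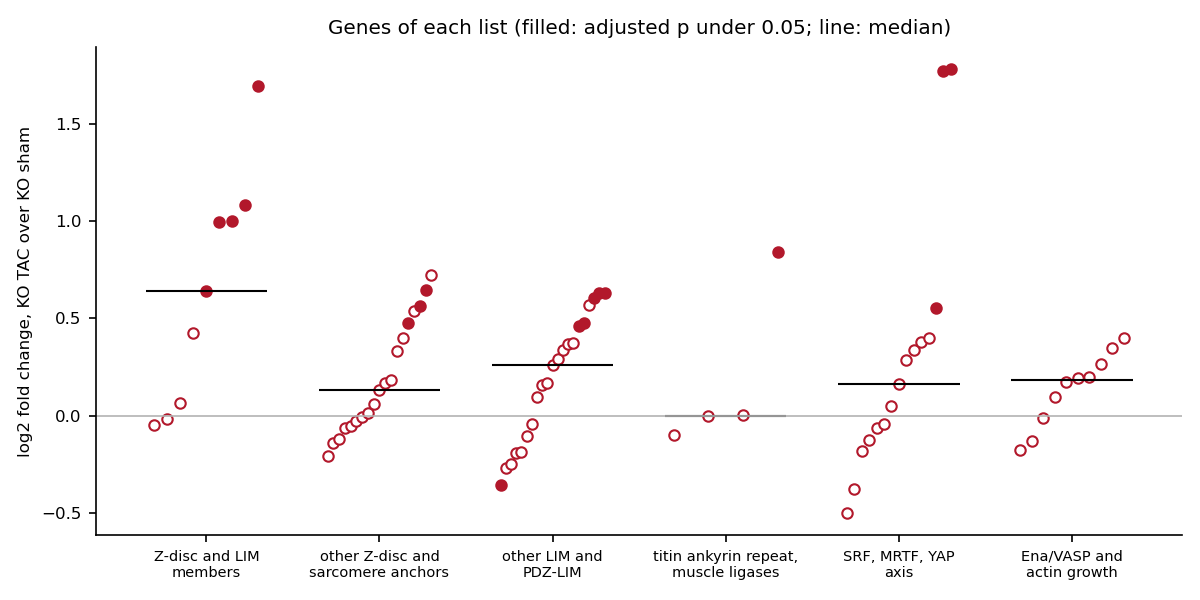
Log2 difference in KO TAC against KO sham of each tested gene of the members and of the other lists (1 point per gene, filled where called, line at the median). The member median of 0.64 lies above the medians of 0.13, 0.26 and 0.16 of the other Z-disc, LIM and SRF lists. It also lies above those of the Ena/VASP list (0.18) and of the titin ankyrin repeat and ligase list (-0.0015). These medians describe genes chosen with earlier results known.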

How the data were processed

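Per the labels' protocols, total left ventricular RNA was isolated with Trizol and given a biotin label in 1 cycle. What the authors deposited is intensity on a linear scale, from GCOS 1.4 per the submitters' processing notes. Settings, detection calls and scan batches of the arrays are not stated there. The 10 members, the gene and marker lists and the rule for named genes (all members, up to 4 called genes of each list per comparison, and the 3 genes most like each called member) were chosen with earlier results of these data known. The text describes some of the genes so named.

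Intensities below 11.9, the 10th percentile, were raised to it before taking log2, and arrays were not normalized again. The array annotation gave 34945 of 45101 probe sets a single gene symbol and 932 several symbols. It gave 9160 no symbol, and 64 were control probe sets. A gene's brightest probe set on average stood for it. Genes in the lowest 40% by mean were dropped, which kept 10916, and single probe sets were fitted after the same filter (27022). Group means were compared with limma 3.58.1 (R 4.3.3), using every array in each fit, two-sided, with Benjamini-Hochberg adjustment. Sample titles gave the groups. The fit was tested on simulated arrays. The number of arrays limits the precision, and dim probe sets had larger standard errors than bright ones of the same gene for Fhl1 and Enah. Other settings changed the normalization, floor, filter, choice of probe set, variance model, arrays fitted and covariates, and left out each array in turn. Atrial signal as a covariate was chosen after seeing the data.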

Additional observations from a re-analysis of the deposited data

Results flagged for a closer look

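Ankrd1 in KO sham had 1 array apart from the others of its group. KO sham replicate 4 had a signal of 56620.5, while the other 3 lay between 42769.1 and 43688.5. The gap was 0.924 of the group's range, above Dixon's critical value for a group of this size. The second Ankrd1 probe set was also highest on that array, at 48787.8, against 32580.6 to 33600.4 on the other 3. The same array had an atrial marker sum of 26513.8, against 1356.5 to 6208.5 on the other 3. Its spike-in mean of 12.90 was the highest of the sham arrays. The part of either in the Ankrd1 signal was not tested. Without KO sham replicate 4 the Ankrd1 difference in KO TAC against KO sham was 0.52 (adjusted p = 0.169), and in KO sham against WT sham it was 0.27 (adjusted p = 0.807).

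Xirp1 in WT sham was lower on replicate 4, at 2144.6, than on the other 3, which lay between 2324.3 and 2354.1, a gap of 0.863 of the range. The whole range of Xirp1 in WT sham was narrow, with an SD of 0.06 on the log2 scale. In all, 36 sets of 4 arrays (9 genes in 4 groups) were checked, and chance alone marks about 1 in 20 of them.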

How the results depend on the processing

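Over the member genes and all settings, 1283 values kept their direction and their side of the threshold, 43 lost a call, 9 gained one and 51 turned sign, each of the last a value that was not called. In KO TAC against KO sham the count of called member genes was 2 when probe sets were averaged per gene, with only the arrays compared, with the spike-in covariate and without the 3 arrays of most extreme spike-ins. Of all 10916 genes, 76, 55, 71 and 34 were called higher with these settings in that order, against 173 in the main fit. The member count was 3 to 5 when 1 array was left out, with 3 without KO sham replicate 2 or 3 or KO TAC replicate 2 or 3. In KO TAC against WT TAC it was 1 with the mean of probe sets (58 of all genes called higher) and 5 with array weights (156 of all genes). It was 3 to 5 there when 1 array was left out, with 5 without KO TAC replicate 1. In KO sham against WT sham it was 0 with centring on medians (7 of all genes called higher) and 0 to 1 when 1 array was left out, with 0 without WT sham replicate 4. In the interaction it was 1 (Enah) with trend and robust options. Of member probe sets, 1 was called in KO TAC against KO sham without the 3 arrays and 3 without the filter. In KO TAC against WT TAC these counts were 1 and 2, and in KO sham against WT sham 0 probe sets were called without the 3 arrays, without the filter or with centring on medians.

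Same-numbered arrays did not deviate together: the correlation exceeded 0.1 for 3 of 16 pairs, with a range of -0.185 to 0.137. With the replicate number as a block, 4 member genes and 5 probe sets were called in KO TAC against KO sham, 3 and 3 in KO TAC against WT TAC, 1 and 0 in KO sham against WT sham, and 0 in WT TAC against WT sham and in the interaction. Of all genes, that block left 136 called higher in KO TAC against KO sham, 100 in KO TAC against WT TAC and 16 in KO sham against WT sham.

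With quantile normalization the sign turned for Enah in KO sham against WT sham (0.0085), for Fhl2 (-0.068) and Csrp3 (-0.014) in WT TAC against WT sham, for Csrp3 (0.17) and Ldb3 (0.096) in KO TAC against KO sham, for Fhl2 (0.16), Csrp3 (0.23) and Ldb3 (0.063) in KO TAC against WT TAC, and for Ankrd1 (0.094), Fhl2 (0.33), Csrp3 (0.19) and Ldb3 (0.012) in the interaction. With centring on medians it turned for Fhl2 in WT TAC against WT sham (-0.017), for Csrp3 (0.11) and Ldb3 (0.079) in KO TAC against KO sham, for Fhl2 (0.12), Csrp3 (0.088) and Ldb3 (0.083) in KO TAC against WT TAC, and for Fhl2 (0.21) and Ldb3 (0.017) in the interaction. Centring moved the median of all genes to -0.12, 0.13, 0.22 and 0.25 in WT TAC against WT sham, the 2 KO TAC comparisons and the interaction, and the KO TAC calls to 158 higher and 18 lower, in place of 173 and 107, against KO sham, and to 238 and 40, in place of 144 and 124, against WT TAC. With the spike-in covariate the sign turned for Xirp1 in KO sham against WT sham (0.0063), for Csrp3 in KO TAC against KO sham (0.17), for Fhl2 (0.034) and Csrp3 (0.16) in KO TAC against WT TAC, and for Ankrd1 (0.19), Fhl2 (0.12) and Csrp3 (0.096) in the interaction. Without the 3 arrays it turned for Csrp3 in KO TAC against KO sham (0.15) and against WT TAC (0.10). With the mean of probe sets it turned for Enah in KO sham against WT sham (0.13) and for Ldb3 in KO TAC against KO sham (0.11) and against WT TAC (0.11). With the atrial covariate it turned for Ankrd1 in KO TAC against WT TAC (-0.059). When 1 array was left out, values spanned 0 in KO sham against WT sham for Fhl1 (-0.17 to 0.041), Fhl2 (-0.11 to 0.063) and Enah (-0.10 to 0.058), in KO TAC against KO sham for Fhl2 (-0.034 to 0.14) and Csrp3 (-0.086 to 0.059), in KO TAC against WT TAC for Ankrd1 (-0.086 to 0.21), and in the interaction for Fhl2 (-0.14 to 0.033). The cause of these changes was not tested.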

Other observations

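For each member called in at least 1 comparison, the 3 tested genes whose log2 values, centred on their own mean, differed least from it over the 16 arrays were listed (root mean square difference, in log2). The arrays share their groups and their scaling, so the values describe likeness only. The genes nearest to Fhl1 were Gask1b (0.19), Enah (0.20) and Ctsz (0.21). Those nearest to Abra were Rcan1, which encodes a regulator of calcineurin (0.32), Ccn2, which encodes a matrix-associated growth factor (0.32), and Otulin (0.42). Those nearest to Myot were Myl1, which encodes a myosin light chain (0.31), Hbegf (0.34) and Armcx4 (0.35). For Enah they were 1700025G04Rik (0.18), Ckap4 (0.20) and F2r (0.20), and for Xirp1 they were Hif1a, Mest and 1700025G04Rik, each at 0.21.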
